A study of Capra aegagrus with 10 samples.

Results

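The miR-99 and miR-100 family was followed through small RNA libraries of goat mammary gland cells in which the level of a long noncoding RNA, lncRNA55666, had been changed with a virus. Members were the identifiers named chi-miR-99a, chi-miR-99b or chi-miR-100 with either arm, and the table held 6 of them (chi-miR-99a-5p, chi-miR-99a-3p, chi-miR-99b-5p, chi-miR-99b-3p, chi-miR-100-5p and chi-miR-100-3p, written below without the goat prefix) among 1403 miRNAs (369 known and 1034 predicted). All 6 passed the filter on low values, at least 5 CPM (counts-per-million of all reads on miRNAs) in at least 2 libraries, as 444 of the 1403 did. miR-100-3p did so with a highest level of 7.04 CPM.

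The labels give 5 groups of 2 libraries, all from the mammary gland of Lanshan dairy goat, and the cells were grown in 3D culture. Blank cells received no virus, Lv5NC is the control virus for overexpression, OV55666 the overexpression of lncRNA55666, Lv3NC the control virus for knockdown and KD553 the knockdown. The labels do not say how many animals or separate cultures the libraries came from, so the p-values measure only the spread between these libraries, which may be technical. The amount of lncRNA55666 in each group was not analysed here.

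The family is among the oldest of animal microRNAs, and its mature 5p strands share 1 seed, the stretch that pairs with target messages. In human and mouse cells its known targets include MTOR, the kinase that couples nutrients to growth, and IGF1R, the receptor of insulin-like growth factor 1, and both lie on pathways that mammary cells use in milk synthesis. In mammals each gene lies in a cluster with a let-7 and a miR-125 gene: miR-99b with let-7e and miR-125a, miR-99a with let-7c and a copy of miR-125b, and miR-100 with a copy of let-7a and the other copy of miR-125b. The 5p strand is the guide that acts on targets, and the 3p strand is the passenger that is mostly degraded.

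Depth was 3108495 to 8739602 miRNA reads per library, 16.2% to 44.6% of the reads in the table. Reads on RF identifiers, which name other small RNAs, made up a share that ran from 4.81% in Lv5NC replicate 1 to 26.3% in KD553 replicate 2. Markers of epithelial cells were at low levels: the 6 listed rows (miR-200a, miR-200b, miR-200c, miR-141, miR-429 and miR-183) summed to 6.89 to 70.1 CPM, with miR-183 at 0 in 2 libraries and miR-141 at 0 in 3. For miR-205, also on the list of epithelial markers, there was no identifier of that name. The 4 stromal markers (miR-143-3p, miR-145-5p, miR-199a-5p and miR-214-3p) summed to 9283 to 20989 CPM. Their sum was 16564 to 17741 CPM in Blank, 15964 to 20989 in Lv5NC, 13544 to 13720 in OV55666, 9913 to 13990 in Lv3NC and 9283 to 15688 in KD553. The sum of the 3 blood markers (miR-451-5p, miR-150 and miR-223-3p) was highest in KD553 replicate 2 at 1824 CPM, against 197 to 1129 CPM elsewhere. The endothelial marker miR-126-3p lay between 25.8 and 97.6 CPM. The part of cell makeup in any value given here was not tested, and in bulk samples fewer cells of a type and less RNA per cell cannot be told apart.

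The family was abundant, and most of its reads came from 1 member, miR-99b-5p. The 6 identifiers of the family took 6.10 ± 1.74% of the miRNA reads of a library (SD, n = 10, range 4.05% to 8.95%). miR-99b-5p averaged 44121 ± 13834 CPM (SD, n = 10) and held rank 5 of all miRNAs by its mean, between let-7a-5p at 46513 ± 10124 CPM and miR-423-3p at 41468 ± 15722 CPM. Its rank within a library ran from 2 to 8. miR-100-5p averaged 8722 ± 2818 CPM (rank 24) and miR-99a-5p 7681 ± 4143 CPM (rank 27). miR-100-5p stood next below miR-125a-5p at 10109 ± 3388 CPM and above the predicted novel_mir1174 at 8547 ± 5534 CPM, and miR-99a-5p stood between let-7i-5p (8360.4 CPM) and miR-16b-5p (7391 CPM). The passenger strands were far less abundant, at 273 ± 96.0 CPM for miR-99b-3p, 16.7 ± 8.09 CPM for miR-99a-3p and 3.78 ± 1.77 CPM for miR-100-3p. All SDs are over the 10 libraries. Mature miRNAs are of nearly the same length, so reads were compared between them without a length term, and any difference in how well each sequence enters a library was not measured.

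miR-99b-5p, the main carrier of the family seed in these cells, stood at 26332 and 50006 CPM in the Blank libraries and at 44354 and 36334 CPM in Lv5NC. It reached 58348 and 44699.7 CPM in OV55666 and 47471 and 71581 CPM in Lv3NC, and stood at 31466 and 30615 CPM in KD553. The order of means was Lv3NC, OV55666, Lv5NC, Blank and KD553. Among neighbours in that order, only OV55666 and Lv5NC did not overlap, and there the gap was small, 44699.7 against 44354 CPM, and closed under each of the 3 other scalings tried. At the scaling used for the values above, the Blank libraries alone spanned from below KD553 to above Lv5NC. The order itself changed with the scaling: OV55666 had the highest mean when scaled to the miRNA total alone, and Blank when scaled to all reads. These values rest on 120555 to 478201 reads of miR-99b-5p per library, so counting error is small beside the differences between replicates.

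miR-99a-5p had another pattern, with Blank at the top. It stood at 10004 and 18063 CPM in Blank, 4119 and 8816 CPM in Lv5NC, 6740.1 and 5074 CPM in OV55666, 4552 and 6618 CPM in Lv3NC and 8069 and 4756 CPM in KD553. Both Blank libraries were above all 8 libraries that had received a virus, except when scaled to all reads in the table, where Lv5NC replicate 2 (2645 CPM of all reads) exceeded Blank replicate 1 (2270.4 CPM of all reads). The share of all miRNAs tested with Blank so placed was not counted. Compared with each control virus alone, 45.7% (Lv5NC) and 33.6% (Lv3NC) of them lay apart from Blank, in either direction. The 4 virus groups overlapped one another. miR-100-5p stood at 7093 and 13513 CPM in Blank, 6463 and 8266 CPM in Lv5NC, 10616 and 6215 CPM in OV55666, 8675 and 13308 CPM in Lv3NC and 6756 and 6313 CPM in KD553. Every pair of neighbours in its order of means (Lv3NC, Blank, OV55666, Lv5NC, KD553) overlapped. miR-99a-5p and miR-100-5p have near-identical sequences, so the counting by the authors could have moved reads between them, and this was not tested.

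The passenger strand miR-99b-3p stood at 132 and 215 CPM in Blank, 275 and 212 CPM in Lv5NC, 331 and 259 CPM in OV55666, 462 and 385 CPM in Lv3NC and 212 and 247 CPM in KD553. Both Lv3NC libraries were above all others, with exceptions at other scalings. OV55666 replicate 1 exceeded both Lv3NC libraries when scaled to the miRNA total alone, and Blank replicate 2 exceeded Lv3NC replicate 2 when scaled to all reads. miR-99a-3p rested on few reads: 157 and 254 in Blank, 18 and 120 in Lv5NC, 68 and 48 in OV55666, 45 and 53 in Lv3NC and 116 and 89 in KD553. In CPM these were 27.2 and 26.6 in Blank, 5.08 and 19.7 in Lv5NC, 11.5 and 10.2 in OV55666, 9.50 and 10.7 in Lv3NC and 23.5 and 22.6 in KD553. Blank and KD553 were thus the high groups of this strand and lay apart from the other 3, but KD553 overlapped Lv5NC when scaled to the miRNA total alone or to all reads. For both passengers, the share of all miRNAs tested with such a separation from the other groups was not counted. miR-100-3p had 8 to 58 reads per library, and its levels of 1.69 to 7.04 CPM were too low to order the groups at this depth.

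**Figure D1:**
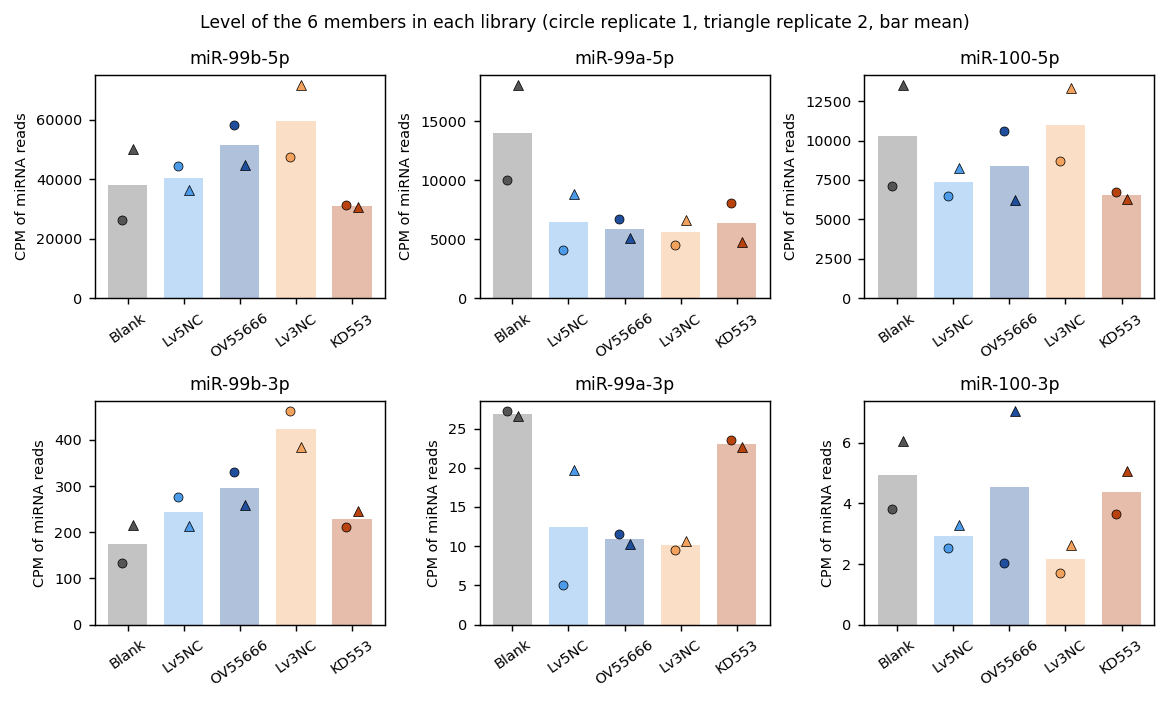
Level of each of the 6 members in CPM of miRNA reads (vertical axis from 0, scaled for each member) in the 5 groups. Circles are replicate 1, triangles replicate 2 and bars the mean of the 2 libraries; miR-99a-5p is highest in both Blank libraries (10004 and 18063 CPM) and miR-99b-3p in both Lv3NC libraries (462 and 385 CPM).

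Overexpression against its control virus asked whether the family follows more lncRNA55666. None of the 6 members passed an adjusted p of 0.05 in limma, where 1 of 444 miRNAs (0.225%), miR-328-3p, did. At an unadjusted p under 0.05 there were 39 miRNAs, none of them a member. The log2 fold change of miR-99b-5p was 0.35 (SE 0.43, 95% interval -0.61 to 1.30, adjusted p = 0.862). Its OV55666 libraries were both above its Lv5NC libraries, a gap that closed under the other scalings, and 46.6% of all miRNAs tested had such a gap in either direction and 18.7% upward. It was 0.28 for miR-99b-3p (interval -0.72 to 1.27), 0.15 for miR-100-5p (-0.90 to 1.20) and 0.34 for miR-100-3p (-1.48 to 2.17). It was -0.04 for miR-99a-5p (-1.21 to 1.12), a sign that turned when reads were scaled to the whole table (0.11), and 0.08 for miR-99a-3p (-1.43 to 1.60), which turned when scaled to the miRNA total alone (-0.05). The intervals reach up to 2.30-fold for miR-100-5p and 2.46-fold for miR-99b-5p. Without Lv5NC replicate 1, the library with the lowest RF share, miR-99b-5p was at 0.49, miR-100-5p at -0.025 and miR-99a-5p at -0.59, with an adjusted p of 0.999 each in limma. The median over the 6 members was 0.21, beside -0.10 over all miRNAs tested and 0.12 over the known ones.

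Knockdown against its control virus asked the reverse question. No member and no other miRNA passed (0 of 444, 0%, by limma), and 40 miRNAs had an unadjusted p under 0.05, no member among them. With KD553 replicate 1 left out, 14 miRNAs passed, again with no member among them. miR-99b-5p averaged 59526 ± 17048 CPM (SD) with the control virus and 31040.4 ± 601 CPM with knockdown (n = 2 each), a log2 fold change of -0.91 (SE 0.43, interval -1.86 to 0.04, adjusted p = 0.586). Its passenger strand miR-99b-3p averaged 424 ± 53.9 and 229 ± 24.8 CPM, a log2 fold change of -0.88 (SE 0.45, interval -1.88 to 0.12, adjusted p = 0.596). miR-100-5p was at -0.72 (interval -1.77 to 0.33, adjusted p = 0.668). miR-99a-5p was at 0.17 (-0.99 to 1.34) and turned to -0.19 when scaled to all reads in the table. miR-99a-3p, with means of 10.1 ± 0.830 and 23.1 ± 0.638 CPM, was at 1.12 (SE 0.68, interval -0.40 to 2.63, adjusted p = 0.653), and miR-100-3p was at 0.77 (-1.06 to 2.60). Without KD553 replicate 2, the library with the highest RF share and most blood markers, miR-99b-5p was at -0.89, miR-99b-3p at -0.99, miR-100-5p at -0.67 and miR-99a-3p at 1.15 (adjusted p = 0.971 each), and miR-99a-5p at 0.56. In 5 of the 6 members the libraries of the groups lay apart, 3 lower and 2 higher in KD553, beside 32.7% of all miRNAs tested (19.8% lower and 12.8% higher). One of the 2 higher is miR-100-3p, with 18 and 20 reads in KD553 against 8 and 13 in Lv3NC, too few to order the groups. The median of the 6 members was -0.27, beside -0.32 over all tested and 0.09 over the known miRNAs.

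At the main scaling, the KD553 values of miR-99b overlapped those of untreated cells. The KD553 libraries of miR-99b-5p, 30615 and 31466 CPM, lay within the span of the Blank libraries. Those of miR-99b-3p, 212 and 247 CPM, stood beside 132 and 215 CPM in Blank. For miR-99b-5p, KD553 replicate 1 fell below both Blank libraries when scaled to the miRNA total alone (27374 against 29965 CPM). KD553 replicate 2 did so when scaled to all reads (4934 against 5976 CPM of all reads). With scaling by median ratios, miR-99b-3p stood at 202 and 288 CPM in KD553, above 131 and 194 CPM in Blank. The difference of the overexpression and knockdown effects was 1.26 for miR-99b-5p (log2, SE 0.60, interval -0.09 to 2.60, adjusted p = 0.788 by limma), 1.16 for miR-99b-3p and 0.87 for miR-100-5p. It was -0.22 for miR-99a-5p, or 0.30 when scaled to all reads in the table, -1.04 for miR-99a-3p and -0.42 for miR-100-3p. No member passed in that comparison, where 0.225% of the miRNAs did.

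The control viruses against untreated cells asked how these miRNAs differ with a virus not meant to change lncRNA55666, whose amount was not analysed here. No member passed in either comparison, where 0% of 444 miRNAs passed for Lv5NC and 0.225% for Lv3NC, and where 30 and 22 had an unadjusted p under 0.05 in limma. miR-99a-5p averaged 14034 ± 5698 CPM in untreated cells (SD, n = 2), 6467 ± 3321 CPM with Lv5NC and 5585 ± 1460.5 CPM with Lv3NC. It had a log2 fold change of -1.16 (SE 0.52, interval -2.32 to 0.01, adjusted p = 0.694) with the first virus and of -1.29 (SE 0.52, interval -2.46 to -0.13, adjusted p = 0.759) with the second. Its passenger miR-99a-3p was at -1.31 (SE 0.68, adjusted p = 0.694) and -1.33 (SE 0.68, adjusted p = 0.759). Both strands lay apart from Blank in both comparisons, except miR-99a-5p in Lv5NC when scaled to all reads in the table. Both comparisons use the same Blank libraries.

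miR-99b had positive log2 fold changes with Lv3NC, but the libraries of its 5p strand overlapped those of Blank. Its 3p strand was at 1.32 against Blank (SE 0.45, interval 0.32 to 2.31, unadjusted p = 0.0148, rank 5 of 444 by p, adjusted p = 0.759) and its 5p strand at 0.68 (SE 0.43, interval -0.27 to 1.64, adjusted p = 0.868). These fell to 0.85 and 0.21 when scaled to the miRNA total alone, and to 0.86 and 0.24 when scaled to all reads. With Lv5NC the 3p and 5p strands were at 0.52 (SE 0.45, adjusted p = 0.797) and 0.15 (SE 0.43, adjusted p = 0.925), the latter -0.35 when scaled to all reads in the table. miR-100-5p was at -0.42 with Lv5NC (interval -1.47 to 0.63) and 0.13 with Lv3NC (-0.91 to 1.18), the latter -0.34 when scaled to the miRNA total and -0.31 when scaled to all reads. miR-100-3p was at -0.58 and -0.90. The groups lay apart for 3 of the 6 members with Lv5NC, all lower, beside 45.7% of all miRNAs (19.4% lower). They lay apart for 4 of 6 with Lv3NC, 1 higher and 3 lower, beside 33.6% (17.1% higher and 16.4% lower). Both counts include miR-100-3p, which has few reads. Scaled to all reads in the table, the gaps of miR-99a-5p and miR-100-3p with Lv5NC and of miR-99b-3p with Lv3NC closed. Knockdown against Lv3NC and Lv3NC against Blank share the Lv3NC libraries.

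Over all 5 groups at once, the moderated F test of limma gave adjusted p of 0.617 for miR-99b-5p, 0.534 for miR-99b-3p, 0.556 for both strands of miR-99a, 0.743 for miR-100-5p and 0.873 for miR-100-3p. In that test 0.225% of the miRNAs passed.

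**Figure D2:**
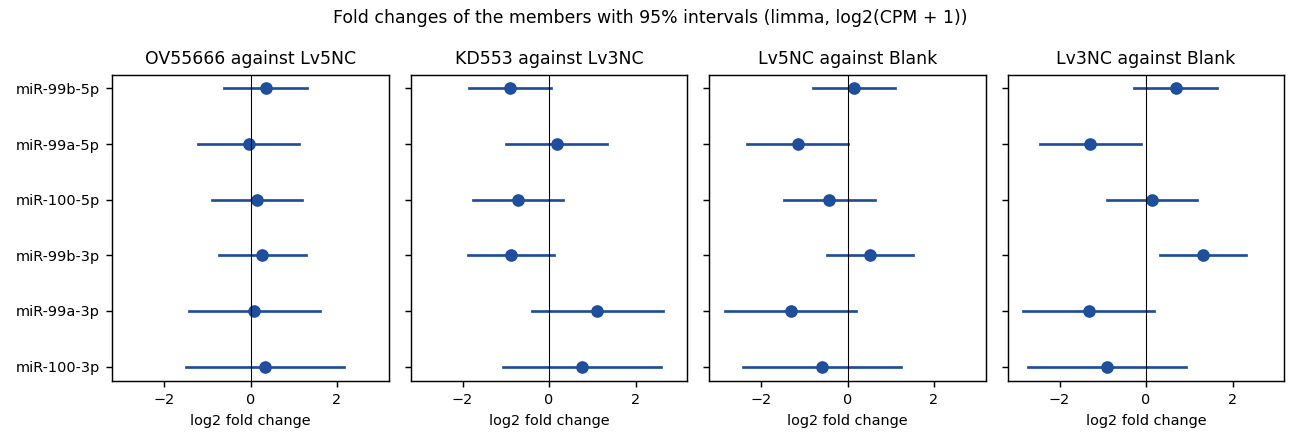
Log2 fold change on the log2(CPM + 1) scale (horizontal axis) of the 6 members in 4 comparisons; points are limma estimates and lines 95% intervals. All intervals cross 0 except those of miR-99a-5p (-2.46 to -0.13) and miR-99b-3p (0.32 to 2.31) in Lv3NC against Blank, and no member passed an adjusted p of 0.05.

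Ratios of reads between members within 1 library do not depend on scaling, and they were given no test. miR-99b-5p exceeded miR-99a-5p in every library, and by least in Blank. The ratio was 2.63 and 2.77 in Blank and 3.90 and 6.44 in KD553. It was 10.8 and 4.12 in Lv5NC, 8.66 and 8.81 in OV55666 and 10.4 and 10.8 in Lv3NC. The replicates of Blank, OV55666 and Lv3NC were close to each other, and those of Lv5NC and KD553 were not. Both Blank libraries lay below all 8 virus libraries. Lv3NC lay above KD553, while OV55666 lay between the Lv5NC libraries. How often other pairs of miRNAs have groups so placed was not counted, here or for the ratios and shares below. Of single miRNAs tested, 45.7% (Lv5NC) and 33.6% (Lv3NC) lay apart from Blank in either direction.

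The ratio of miR-99b-5p to miR-100-5p was likewise lowest in Blank, at 3.71 and 3.70. It was 6.86 and 4.40 in Lv5NC, 5.50 and 7.19 in OV55666, 5.47 and 5.38 in Lv3NC and 4.66 and 4.85 in KD553. miR-100-5p was less abundant than miR-99a-5p in both Blank libraries (ratios 0.709 and 0.748), in Lv5NC replicate 2 (0.938) and in KD553 replicate 1 (0.837), and more abundant in the other 6, up to 2.01 in Lv3NC replicate 2. As shares of the reads of the 3 guides, miR-99a-5p held 22.6 ± 0.633% in Blank and 12.0 ± 6.37% in Lv5NC (SD, n = 2). It held 8.98 ± 0.113% in OV55666, 7.37 ± 0.189% in Lv3NC and 14.4 ± 4.26% in KD553. Its share was 23.0% and 22.1% in the Blank libraries and 7.23% to 17.4% in the 8 virus libraries, without overlap. This share rests on the same reads as the ratios above. The 3 guides together overlapped between Blank and each virus group: their sum was 62506 ± 26978 CPM in untreated cells. It was 54176 ± 1075 CPM for Lv5NC and 65847 ± 13941 CPM for OV55666, and 76102 ± 21784 CPM for Lv3NC and 43987 ± 3257 CPM for KD553, with Blank spanning 43429 to 81582 CPM. Both KD553 libraries (41684 and 46290 CPM) lay below both Lv3NC libraries (60699 and 91506 CPM). Both OV55666 libraries (55989 and 75704 CPM) lay above both Lv5NC libraries (53416 and 54936 CPM). These gaps largely repeat those of miR-99b-5p, which held 72.5 ± 7.57% of the guide reads (SD, n = 10). Of single miRNAs tested, 32.7% lay apart in knockdown and 46.6% in overexpression, in either direction. As a share of miRNA reads, the 6 identifiers overlapped between OV55666 (8.53% and 5.41%) and Lv5NC (6.30% and 6.25%).

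Guide strands outnumbered passengers throughout. miR-99b-5p exceeded miR-99b-3p 103-fold to 233-fold, with a median of 172. Among the 92 known miRNAs with both arms listed and at least 1000 pooled reads, this arm ratio and that of miR-214 had the smallest spreads over the libraries (SD 0.34 on the log2 scale for both), a rank that also depends on the number of reads behind each arm. The ratio was 199 and 233 in Blank, 161 and 171 in Lv5NC, 176 and 172 in OV55666, 103 and 186 in Lv3NC and 149 and 124 in KD553. Both Blank libraries had the highest values. How many of the 92 arm pairs set Blank apart from the other groups was not counted. miR-99a-5p exceeded miR-99a-3p 210-fold to 811-fold, with the lowest values in KD553 (343 and 210) and in Blank replicate 1 (368). miR-100-5p exceeded miR-100-3p 883-fold to 5210-fold, on 8 to 58 reads of the passenger.

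**Figure D3:**
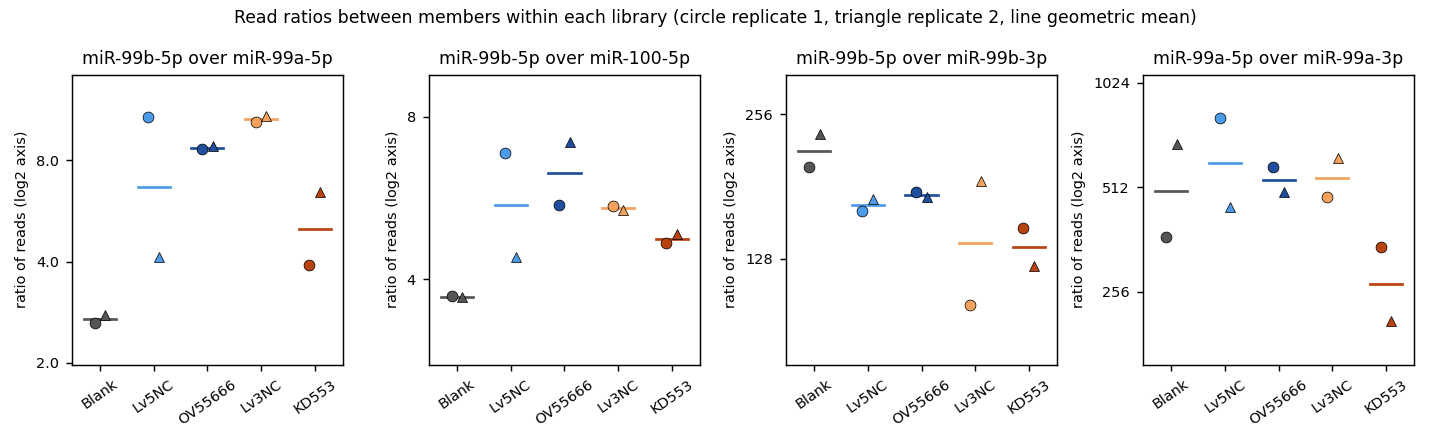
Ratio of reads within each library (vertical axis on a log2 scale) for miR-99b-5p over miR-99a-5p, over miR-100-5p and over its own 3p strand, and for miR-99a-5p over its 3p strand. Circles are replicate 1, triangles replicate 2 and lines geometric means of the 2 libraries; the first 2 ratios are lowest in Blank (2.63 and 2.77, 3.71 and 3.70), where the third is highest (199 and 233).

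Of the 8 listed strands of the cluster partners, 7 passed the filter and none passed the adjusted threshold in any of the 5 comparisons (let-7c-3p, at 2.64 CPM, was not tested). The partners of miR-99b were less abundant than miR-99b-5p although they come from the same cluster. let-7e-5p averaged 2515 ± 679 CPM, 0.036 to 0.116 of the miR-99b-5p reads, and miR-125a-5p 10109 ± 3388 CPM, 0.118 to 0.399 of them. In overexpression miR-125a-5p was at 1.03 (log2 fold change, SE 0.45, interval 0.01 to 2.04, adjusted p = 0.541) where miR-99b-5p was at 0.35 and let-7e-5p at 0.01. In knockdown they were at -0.14, -0.91 and -0.45. let-7e-3p was listed with 2 reads in Lv5NC replicate 1 (0.564 CPM), and lay at up to 469 CPM in the others, so its value of 4.15 in overexpression rests on that library.

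The partner of miR-99a had levels of the same order. let-7c-5p averaged 6111 ± 1928 CPM, 0.495 to 1.13 of the miR-99a-5p reads. Its mean was highest in Blank (8359 ± 814 CPM), but KD553 replicate 1 (9136 CPM) exceeded both Blank libraries (7783 and 8935 CPM), unlike for miR-99a-5p. It had log2 fold changes of -0.86 with Lv5NC and -0.69 with Lv3NC (adjusted p = 0.694 and 0.868). miR-125b-5p, which comes from both the miR-99a and the miR-100 cluster, averaged 10318 ± 4223 CPM. It was at 0.46 and 0.68 with the control viruses and at -0.83 in overexpression (adjusted p = 0.707). In overexpression 4 of the 7 tested partners had positive values (median 0.01), and in knockdown 2 of 7 (median -0.30).

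Across the 10 libraries the Pearson r of log2(CPM + 1) was 0.76 between the strands of miR-99b, 0.73 between those of miR-99a and -0.22 between those of miR-100. It was 0.73 between miR-99b-5p and miR-100-5p, 0.54 between miR-99a-5p and miR-100-5p and -0.08 between miR-99b-5p and miR-99a-5p. These are descriptions of 10 libraries that share scaling, groups and depth. Likeness was then ranked among 129 known miRNAs outside the family, of at least 50 CPM. Most like miR-99b-5p were miR-130b-5p (0.81), let-7d-3p (0.71), miR-3432-5p (0.68), let-7b-3p (0.61) and miR-1343 (0.59). Those most like miR-99a-5p were miR-491-5p (0.86), the cluster partner let-7c-5p (0.84), miR-199a-5p (0.74), let-7a-5p (0.73) and let-7e-5p (0.68). Those most like miR-100-5p were let-7e-5p (0.82), let-7a-5p (0.77), miR-151-5p (0.77), miR-196a (0.73) and miR-130b-5p (0.72). For the passengers, miR-99b-3p was closest to let-7d-3p (0.85) and miR-193b-3p (0.76), miR-99a-3p to miR-23b-3p (0.83) and miR-16a-5p (0.80), and miR-100-3p to miR-103-3p (0.83) and miR-22-5p (0.76).

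**Figure D4:**
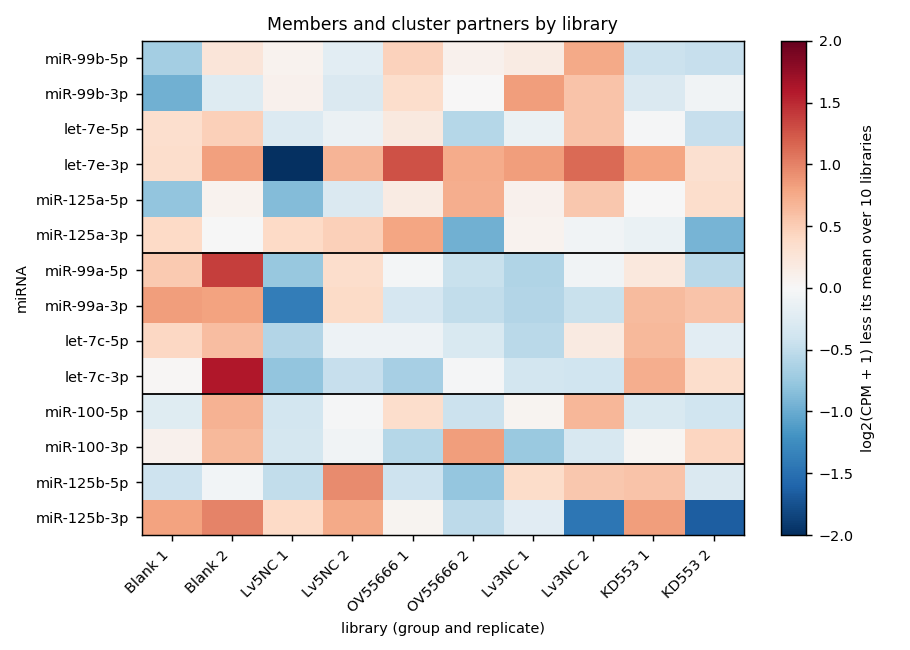
Log2(CPM + 1) of members and cluster partners (rows) in the 10 libraries (columns), each less its mean over the libraries; the colour scale stops at -2 and 2, and lines part the miR-99b, miR-99a and miR-100 clusters and miR-125b. miR-99a-5p and let-7c-5p are high in the Blank columns (r = 0.84 over the 10 libraries), let-7c-5p also in KD553 replicate 1, and let-7e-3p in Lv5NC replicate 1 (2 reads) lies beyond the scale.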

How the data were processed

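Small RNA reads were counted per identifier by the authors, and the deposited columns used here hold read counts with no normalization, per the file headers. Aligner, miRNA database and genome build: not given in the sources used here. No count is 0, and 11323 of 22330 cells hold a missing mark, read as 0; because of these marks a test on the log scale was used in place of a count model. The other 10 columns (TPM) were not used. Columns were matched to samples by title; for KD553 the sample descriptions number the columns otherwise, which affects replicate names only.

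CPM are counts-per-million of all known and predicted miRNA reads with TMM factors (trims 30% and 5%; 0.796 to 1.16). limma 3.58.1 (R 4.3.3, trend, robust, two-sided) was fitted to log2(CPM + 1) of 444 miRNAs with 5 group means, 10 libraries in 1 fit. Benjamini-Hochberg adjustment ran over all tested miRNAs. Intervals are 95%. The fit was tested on simulated data.

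Members, lists and tests were chosen with earlier results of these data known. Named miRNAs are the members, their cluster partners and the neighbours in mean level of the guides. Also named are the 5 known miRNAs outside the family of highest r with each member. All 5 are printed for guides and the first 2 for passengers. Alternatives were a pseudocount of 5 CPM, other filters and scalings, known miRNAs only, a replicate block, a fit of the compared groups alone, the RF share as covariate and leaving out each library. Mature sequences and coordinates were not used here.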

Additional observations from a re-analysis of the deposited data

Results flagged for a closer look

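miR-99b-5p had opposite directions in the overexpression and knockdown comparisons: both OV55666 libraries were above both Lv5NC libraries, and both KD553 libraries were below both Lv3NC libraries. The difference of the effects was 1.26 on the log2 scale (SE 0.60). It did not pass limma's test (adjusted p = 0.788, unadjusted p = 0.0644). The gap on the overexpression side was 44699.7 against 44354 CPM and closed under each of the 3 other scalings, and the miR-99b-3p passenger, at 1.16, overlapped between OV55666 and Lv5NC. How many miRNAs outside the family lay apart in opposite directions was not counted. Of all miRNAs tested, 46.6% lay apart in overexpression (18.7% higher) and 32.7% in knockdown (19.8% lower).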

How the results depend on the processing

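No member passed an adjusted p of 0.05 in any comparison or in the F test under any alternative run, leaving out each library included; the smallest adjusted p was 0.353 (miR-99b-3p in knockdown, without Lv3NC replicate 2). The values of miR-99b-5p, miR-99b-3p and miR-100-5p in knockdown and of both strands of miR-99a with each control virus kept their sign throughout. Scaling to the miRNA total without TMM moved the median of all miRNAs by -0.40 (log2) for Lv3NC against Blank, and scaling to all reads in the table by -0.41 for Lv5NC against Blank. Less that median, miR-99a-5p was at -1.21 to -1.37 for Lv3NC over the 4 scalings and miR-99b-5p at -0.54 to -0.85 in knockdown.

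Signs turned for small values. Scaled to all reads, miR-99a-5p was 0.11 in overexpression, -0.19 in knockdown and 0.30 for the difference of the effects, miR-99b-5p was -0.35 for Lv5NC, and miR-100-5p was -0.31 for Lv3NC. Scaled to the miRNA total, miR-100-5p was -0.34 for Lv3NC and miR-99a-3p -0.051 in overexpression. With the RF share as covariate, miR-99a-5p was 0.23 and miR-99a-3p -0.14 in overexpression, and miR-99b-5p was -0.0017 for Lv5NC. With each library left out in turn, overexpression values ran from -0.59 to 0.51 for miR-99a-5p, -0.80 to 0.97 for miR-99a-3p, -0.23 to 0.54 for miR-100-5p and -0.36 to 1.05 for miR-100-3p. The knockdown value of miR-99a-5p ran from -0.21 to 0.56. Against Blank, miR-100-5p ran from -0.33 to 0.60 for Lv3NC and -0.89 to 0.043 for Lv5NC, and miR-99b-5p from -0.32 to 0.61 for Lv5NC. The difference of the effects ran from -0.77 to 0.33 for miR-99a-5p and -1.13 to 0.28 for miR-100-3p. The cause was not tested.

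Counts over all miRNAs moved more. A pseudocount of 5 CPM gave 2 calls in the F test, 1 in knockdown and 2 for Lv3NC, and no filter gave 7, 1 and 2, in place of 1, 0 and 1. Scaling to all reads gave 16 in the F test, 1 in knockdown and 1 for Lv5NC (in place of 0). With a library left out the counts ran from 1 to 3 in overexpression, 0 to 14 in knockdown (14 without KD553 replicate 1), 0 to 2 for Lv5NC, 1 to 2 for Lv3NC, 1 to 4 for the difference and 1 to 3 in the F test. The replicate block gave 8 calls in the F test and 1 in knockdown and changed no call of a member. Deviations of same-numbered libraries correlated at -0.03 to 0.30 (8 of 10 pairs of groups over 0.1). The main fit did not pair the libraries by number, and whether the numbers mark a shared culture was not tested. Depth limits miR-100-3p (8 to 58 reads), which did not pass the filter at 50 CPM or when scaled to all reads, and miR-99a-3p (18 to 254 reads), which did not pass at 50 CPM.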

Other observations

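The guides were compared between the replicates of a group. In Blank, replicate 2 exceeded replicate 1 by 1.90-fold for miR-99b-5p, 1.81-fold for miR-99a-5p and 1.91-fold for miR-100-5p, while the median of the known miRNAs of at least 1000 CPM was 1.15. In Lv3NC the ratios were 1.51, 1.45 and 1.53 beside 1.27, and in OV55666 they were 0.766, 0.753 and 0.585 beside 0.885. In these 3 groups the guides differed in the same direction, as they did in KD553, where replicate 2 was lower for each guide. In each of these groups the median of the known miRNAs lay in that direction too. The ratios in KD553 were 0.973, 0.589 and 0.934 beside 0.886. There miR-99a-5p had the lowest ratio of the 3, and miR-99b-5p and miR-100-5p lay nearer to 1 than the median. In Lv5NC the ratios were 0.819, 2.14 and 1.28 beside 1.23, with miR-99b-5p lower and the other guides higher in replicate 2. Over the 10 libraries the SD of log2(CPM + 1) was 0.45 for miR-99b-5p, 0.43 for miR-100-5p and 0.65 for miR-99a-5p, beside a median of 0.91 over the 444 miRNAs tested and of 0.61 over the 71 with a mean of at least 1000 CPM, among which they ranked 22, 20 and 40 from the smallest SD.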
